A study of Mus musculus with 90 samples.

Results

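The liver and the kidney are the main metabolic and excretory organs of the body, and the comparison described here set the 6 liver libraries of the study against its 6 kidney libraries, 12 of the 90 libraries in all. The libraries were chosen by their labelled tissue alone. All came from female C57BL/6 mice of 10 weeks, as the sample labels state, with no treatment, deletion or transgene. For each organ, 3 libraries were of the estrus phase and 3 of the diestrus phase. The phase was read from vaginal smears stained with methylene blue, and the study also measured serum estrogen and progesterone as an aid. The study sampled 15 tissues from mice in each phase to ask how the estrous cycle changes their transcriptomes. The difference between organs is not the question that the study asked, but the same libraries measure it with 6 values on each side.

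The liver lobule is built mostly of hepatocytes, which secrete the proteins of the blood plasma, make bile acids, turn ammonia into urea and modify drugs and hormones. The kidney is a series of tubule segments behind a filter. Podocytes hold the filter of the glomerulus, the proximal tubule takes back most of the filtered solutes, the thick ascending limb and the distal convoluted tubule take back salt, and the collecting duct adjusts water, potassium and acid under hormonal control. Both organs also form glucose, break down amino acids and carry many of the same transporters. In bulk tissue a lower value can come from fewer cells of a type or from less RNA per cell, and these cannot be told apart here.

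Expression is given as FPKM, the fragments of a gene divided by its length in kilobases and by the size of its library, so that levels of different genes can be compared per length. The table lists 20414 genes, and 12346 of them, those averaging 1 FPKM or more in the 12 libraries, were tested on the log2(FPKM + 1) scale with limma, with the phase as covariate. Differences on this scale are positive where liver was higher and are given with their standard error, and they understate the change of genes with low values. A gene was called where its log2 difference was at least 1 in either direction and its adjusted p at most 0.05. Adjusted p-values throughout are those of limma with Benjamini-Hochberg adjustment over all 12346 genes. Where 3 levels are given for an organ, they are the lowest, the median and the highest of its 6 libraries.

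The depth of the libraries is not stated in the table. From the steps between low values, the liver libraries held about 1.19 to 1.27 times and the kidney libraries about 1.00 to 1.12 times the fragments of kidney estrus replicate 1. Liver libraries listed 4580 to 4642 genes at 0 and kidney libraries 3485 to 3864. The 20 most abundant genes held 29.2% to 30.9% of the summed FPKM in liver and 18.7% to 21.7% in kidney, and the 100 most abundant held 48.0% to 50.4% and 30.4% to 35%. All 12 libraries carried the defining genes of their labelled organ, as the values below show. Transcripts of cardiac muscle set 2 libraries apart. The summed level of Myl2, Mb, Myh6, Tnnt2, Tnni3, Actc1 and Myl3 was 46.2 to 66.3 FPKM in the 6 liver libraries and 68.8 to 73.0 FPKM in 4 kidney libraries, 0.0685% to 0.108% of the median sum of the heart libraries, but 2.15 and 1.45 FPKM in replicate 3 of kidney in estrus and in diestrus. Urothelial genes, which belong to the lining of the renal pelvis, were highest in kidney diestrus replicate 2 and kidney estrus replicate 1, where Psca stood at 70.1 and 20.7 FPKM against 2.13 to 8.33 FPKM in the other kidney libraries. These 2 libraries also had the highest Akr1b3, the aldose reductase of the inner medulla, at 273 and 138 FPKM against 22.8 to 35.4 FPKM. The fat cell gene Cfd was at 46.6 and 24.8 FPKM in kidney diestrus replicates 2 and 3 and at 1.23 to 8.08 FPKM in the other 4, and the stomach gene Pgc was at 65.2 FPKM in kidney diestrus replicate 3 and at or below 0.05 FPKM elsewhere. These genes were picked after their values were seen, and the part of tissue composition and of carry-over between libraries was not tested. Without both replicate 3 libraries of kidney, 1028 genes were called higher in liver and 4573 higher in kidney, and without the 2 kidney libraries with high urothelial genes the counts were 1043 and 4088.

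**Figure D1:**
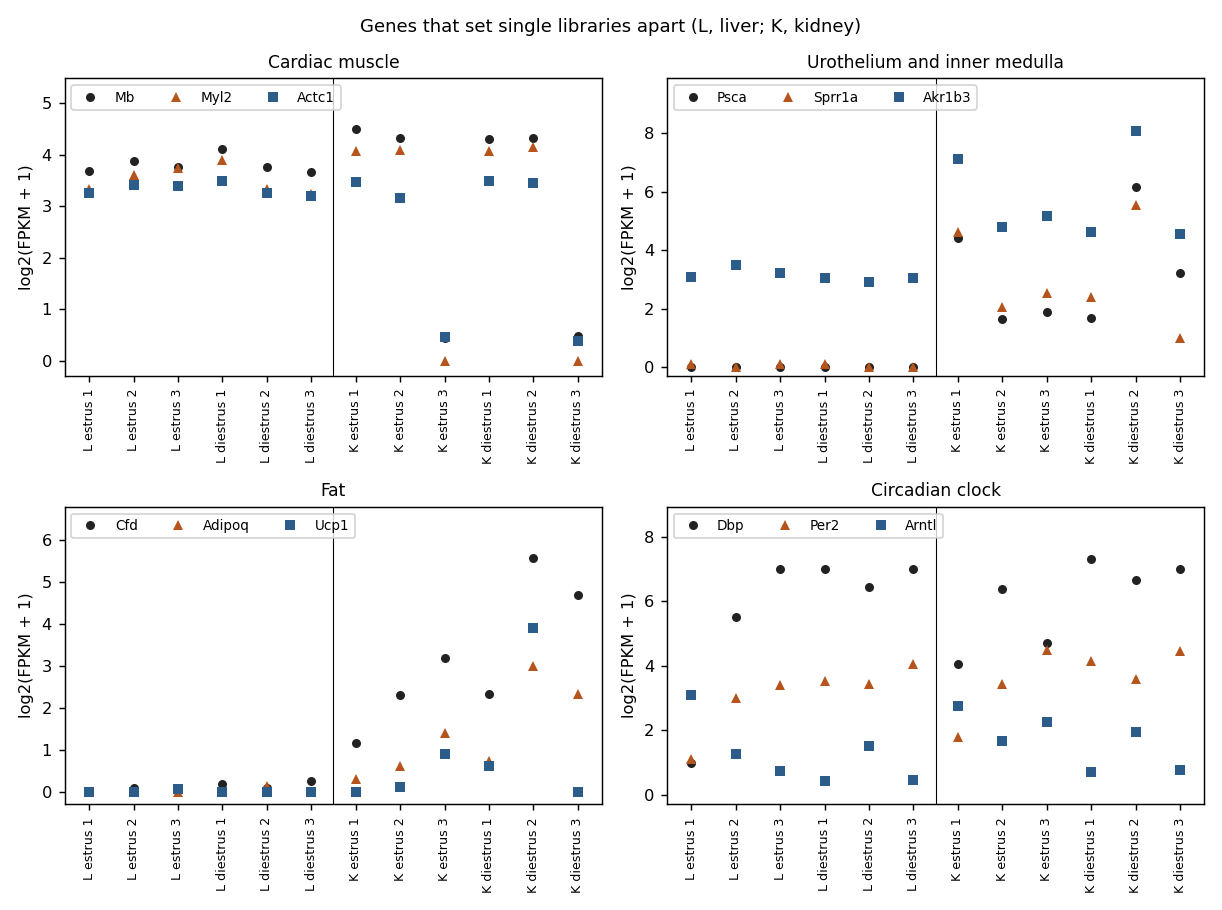
Log2(FPKM + 1) in each of the 6 liver (L) and 6 kidney (K) libraries for genes of cardiac muscle (Mb, Myl2 and Actc1), of the urothelium and inner medulla, of fat and of the circadian clock; each point is 1 gene in 1 library. The cardiac genes are near 0 in replicate 3 of kidney in both phases and at 7.89 to 21.5 FPKM in the other 10 libraries, and Dbp is at 0.98 FPKM in liver estrus replicate 1.

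Over all tested genes, 1022 were called higher in liver, 8.28% of those tested, and 4423 higher in kidney, 35.8%, so that 44.1% were called in either direction. The liver calls were fewer but reached far, with 298 genes at least 16 times higher on the log2(FPKM + 1) scale, against 367 in kidney. This split depends on how the libraries are scaled, and its cause was not tested. The median difference of all tested genes was -0.74. Rescaled without the 100 most abundant genes it was -0.48, with 1186 genes called higher in liver and 3153 higher in kidney. When libraries were centred on the median of the 5405 genes with at least 5 FPKM in all 12, which moved every difference up by 0.59, 1511 genes were called higher in liver (12.2% of those tested) and 2183 higher in kidney (17.7%). After quantile normalization the counts were 1640 (13.3%) and 1979 (16.0%). Liver thus held 18.8% of the calls as deposited, 40.9% after centring and 45.3% after quantile normalization. As deposited, after centring and after quantile normalization alike, 1017 genes were called higher in liver and 1823 higher in kidney. Values below are on the deposited scale, and named genes whose call changes with centring and lists whose count does are given with both. List counts are to be read against 8.28% and 35.8% of all tested genes as deposited, and 12.2% and 17.7% after centring. The 6 liver values lay above all 6 kidney values for 11.3% of the tested genes, and the reverse held for 67.3%.

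**Figure D2:**
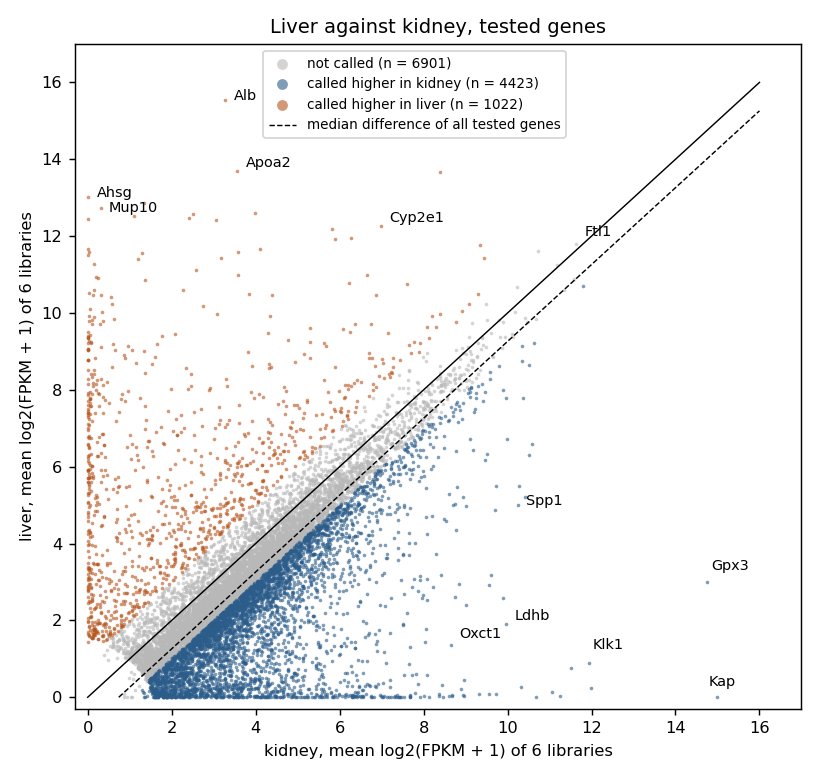
Mean log2(FPKM + 1) of 6 liver libraries against that of 6 kidney libraries for the 12346 tested genes; each point is a gene, colored by its call, the solid line marks equal values and the dashed line the median difference of -0.74. The cloud of genes lies below the line of equal values, and 1022 genes were called higher in liver against 4423 in kidney.

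The genes with the largest differences were abundant in one organ and at or near 0 in the other. In liver they were Ahsg, Mup22, Mup10, Alb, Serpina3k, Mup3, Apoa1, Mup19, Serpina1b and Hpx, all of them secreted proteins. Alb, the albumin of plasma, stood at 40374, 47427 and 57329 FPKM in liver and at 7.12, 8.94 and 10.5 FPKM in kidney, a difference of 12.28 ± 0.10 (adjusted p = 2.95e-18). Ahsg, the plasma carrier fetuin-A, stood at 7259, 8352 and 9435 FPKM in liver and was listed at 0 in 5 of the 6 kidney libraries and at 0.07 FPKM in the other. Both genes separate the organs without overlap, and their spread among the livers is small beside the gap. The 4 Mup genes encode major urinary proteins, pheromone carriers that the liver makes and the kidney passes into urine. Mup10 ranged over 4065, 6691 and 11099.8 FPKM and Mup19 over 426, 3504 and 12781 FPKM in liver, so that the livers themselves differed by a wide margin in Mup19. The Mup, Serpina1 and Serpina3 genes lie in clusters of near-identical copies, and how reads were shared among the copies is uncertain. In kidney the leaders were Kap, Fxyd2, Gpx3, Slc34a1, Klk1, Miox, Napsa, Umod, S100g and Gm10681. Kap, the kidney androgen-regulated protein of the proximal tubule, stood at 25187, 32492 and 41457 FPKM in kidney and was listed at 0 in all 6 livers. Gpx3, the glutathione peroxidase that the proximal tubule secretes into plasma, stood at 22447, 28378 and 33973 FPKM in kidney and at 6.10, 6.57 and 9.12 FPKM in liver, without overlap. Fxyd2 is a subunit of the sodium pump, S100g a calcium-binding protein and Miox the oxygenase that opens myo-inositol, and their differences were -11.76 ± 0.086, -10.05 ± 0.18 and -10.91 ± 0.12. The uncharacterized Gm10681 differed by -9.64 ± 0.082.

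Promoter sequence was read for the tested genes where RefSeq, build GRCm38.p6, gave it, which was the case for 9874 of them. Each promoter covers 250 bases before and 50 after the start. The 150 bases before the start are shown for 4 of the leading genes, with capitals on the letters that match a motif named here. The motifs in these stretches are TTGCNNAA, the C/EBP motif, on either strand, and TATAAA, the TATA box, on the gene's strand.
Alb, chr5:90460720-90460869, plus strand: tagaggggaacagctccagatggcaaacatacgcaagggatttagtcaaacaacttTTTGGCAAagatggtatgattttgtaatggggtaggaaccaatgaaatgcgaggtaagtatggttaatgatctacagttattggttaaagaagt
Ahsg, chr16:22891865-22892014, plus strand: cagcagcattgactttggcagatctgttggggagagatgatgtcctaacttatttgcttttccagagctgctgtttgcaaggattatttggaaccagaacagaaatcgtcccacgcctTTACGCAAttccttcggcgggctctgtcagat
Miox, chr15:89334323-89334472, plus strand: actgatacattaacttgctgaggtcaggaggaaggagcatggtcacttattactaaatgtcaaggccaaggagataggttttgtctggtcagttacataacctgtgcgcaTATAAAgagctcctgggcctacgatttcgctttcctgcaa
Kap, chr6:133853668-133853817, minus strand: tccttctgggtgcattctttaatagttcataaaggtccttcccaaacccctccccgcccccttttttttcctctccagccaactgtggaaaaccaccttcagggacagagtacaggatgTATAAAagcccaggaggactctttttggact
The stretch of Alb holds a C/EBP match 94 bases before the start and that of Ahsg a C/EBP match at 32, while Miox holds a TATA box at 40 and Kap one at 31. Some genes have several promoters, and of all 12661 promoters of tested genes, 8.90% held the C/EBP motif. The share was 25.1% for genes called at least 16-fold higher in liver and 8.24% for those called at least 16-fold higher in kidney. The TATA box was in 4.89%, 15.8% and 8.24%. CAAAGTCCA, a direct repeat that HNF4 binds, was in 0.521% of all promoters, 2.75% of the liver set and 1.42% of the kidney set. These are 8 of 291 promoters of the liver set and 5 of 352 of the kidney set. GCCNNNGGC, the AP-2 motif, was in 24.6%, 12.0% and 23.9%, and TCAAGGTCA, the estrogen-related receptor motif, in 0.276%, 0.344% and 0. In the liver set the estrogen-related receptor motif was in 1 promoter. No motif on this list holds the letters of another whole. The shares describe letters in a window, and binding was not measured. Promoters of the same gene or of near-identical copies are not independent.

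Of the 29 plasma proteins of hepatocytes, 28 were called higher in liver, where the share over all tested genes was 8.28%, and 29 after centring. The median difference over the list was 9.38 against -0.74 over all tested genes. Beside Alb, the most abundant were Apoa2, Ahsg and Apoa1. Apoa2 and Apoa1, the proteins of high density lipoprotein, stood at 10826, 13460.3 and 14258 FPKM and at 5477, 7734 and 9394 FPKM in liver, and at 7.30, 10.9 and 14.6 FPKM and 0.45, 1.18 and 4.02 FPKM in kidney. The exception was Cpn1, the catalytic chain of carboxypeptidase N, at 173, 180.0 and 215 FPKM in liver and 79.1, 99.7 and 105 FPKM in kidney, which differed by 0.95 ± 0.078 and was called after centring. Several carriers were also present in kidney at a low level. Ttr, which carries thyroxine, stood at 38.0, 51.8 and 101 FPKM there, and Gc, which carries vitamin D, at 42.8, 57.5 and 84.7 FPKM, with differences of 6.36 and 6.03. Cp, the copper oxidase ceruloplasmin, stood at 18.8, 24.3 and 32.2 FPKM in kidney against 222, 246 and 379 FPKM in liver.

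Complement and coagulation factors followed the plasma proteins, with 40 of 48 called higher in liver, 3 higher in kidney and a median of 5.04, and 43 and 2 after centring. The fibrinogen chains Fgb, Fgg and Fga and the complement component C3 led the list. Fgb stood at 2403, 3132 and 3535 FPKM in liver and at 0.55, 1.44 and 2.38 FPKM in kidney. C3 stood at 2333, 2584 and 3968 FPKM and 5.65, 7.48 and 12.7 FPKM. The 3 genes that went the other way were F3, the tissue factor that starts clotting, Thbd, the thrombomodulin of endothelium, and Tfpi, the inhibitor of tissue factor, with kidney means 5.18, 5.85 and 2.84 times those of liver. F3 and Thbd are membrane proteins, and Tfpi was no longer called after centring. F13b and Cfb, by contrast, were carried by both organs. F13b, the carrier chain of factor XIII, stood at 76.9, 82.1 and 86.5 FPKM in liver and 31.4, 50.5 and 72.7 FPKM in kidney and was not called as deposited but called after centring, and Cfb, complement factor B, differed by 2.12 ± 0.084 with 90.9, 102 and 126 FPKM in kidney.

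**Figure D3:**
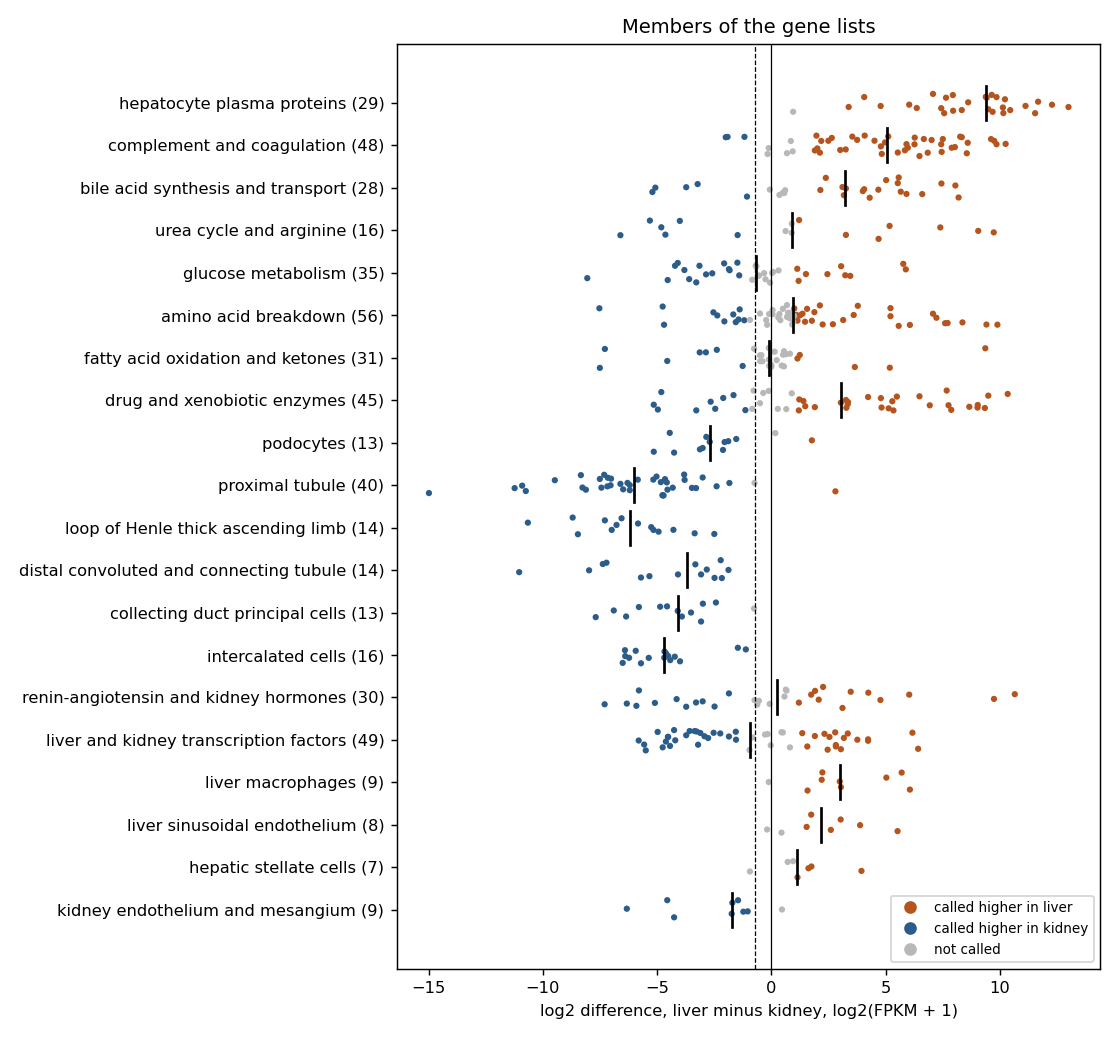
Difference between liver and kidney on the log2(FPKM + 1) scale for each tested member of the lists with at least 7 tested genes, the number of which stands in parentheses; points are colored by call, short bars are list medians, and the solid and dashed lines mark 0 and the median of all tested genes, -0.74. The plasma proteins have a median of 9.38 and the thick ascending limb genes a median of -6.20, while the fatty acid oxidation genes lie around -0.10.

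Of 28 genes of bile acid synthesis and transport, 18 were called higher in liver and 5 higher in kidney, where 8.28% and 35.8% of all tested genes were. After centring the counts were 21 and 4. Slc10a1, which takes bile acids up from blood, stood at 537, 563 and 595 FPKM in liver and at 0.27, 0.97 and 1.72 FPKM in kidney. Slc27a5 and Hsd3b7, enzymes of the pathway, stood at 252, 285 and 339 FPKM and 117, 204 and 288 FPKM in liver and at 0.06, 0.07 and 0.16 FPKM and 10.2, 11.5 and 11.9 FPKM in kidney. Cyp7a1, the rate-limiting enzyme, stood at 41.0, 55.5 and 116 FPKM in liver and was listed at 0 in 4 kidney libraries and at no more than 0.02 FPKM in the others. Cyp27a1, which starts the alternative route, was present in both organs at 176, 190.4 and 223 FPKM and 16.4, 23.0 and 27.9 FPKM. In kidney, Slc10a2, the apical transporter that takes bile acids back from urine, stood at 23.3, 35.7 and 57.1 FPKM against 1.99, 2.73 and 5.33 FPKM in liver. Slc51a and Slc51b, the subunits of the basolateral exporter, differed by -5.21 and -5.08, and the exporter Abcc4 by -3.73. The thioesterase Acot8 was called higher in kidney at -1.07 but not after centring. The bile acid receptor Nr1h4 stood at 58.6, 74.4 and 77.1 FPKM in liver and 41.0, 49.1 and 57.9 FPKM in kidney, a difference of 0.50 ± 0.089 that was not called as deposited and was called after centring.

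Genes of the urea cycle differed between the organs by enzyme. Among 16 genes of the cycle and of arginine use, 7 were called higher in liver and 6 higher in kidney, the latter a share close to the 35.8% of all tested genes, and 10 and 5 after centring. Cps1, the first enzyme, stood at 472, 537 and 609.9 FPKM in liver and at no more than 0.06 FPKM in kidney. Otc, the second, stood at 143, 167 and 192 FPKM in liver and was listed at 0 in all 6 kidney libraries. Ass1 and Asl, which form arginine, were abundant in both organs. Ass1 stood at 2468, 3321 and 3586 FPKM in liver and 1392, 1648 and 2136 FPKM in kidney, without overlap, and differed by 0.89 ± 0.11, which was not called as deposited, was called after centring at 1.48 and turned negative after quantile normalization, at -0.36. Asl differed by 1.21 ± 0.14. Arg1, the arginase that ends the cycle, stood at 764, 927 and 974 FPKM in liver and at 0, 0.07 and 0.15 FPKM in kidney. The genes called higher in kidney were Gatm, which makes the precursor of creatine, the creatine transporter Slc6a8, the creatine kinases Ckb and Ckmt1, the mitochondrial arginase Arg2 and the arginine transporter Slc7a1, with differences of -6.61, -4.82, -4.01, -5.32, -4.64 and -1.48. Slc7a1 was not called after centring. Gatm stood at 345, 558 and 599 FPKM in kidney, and Gamt, which completes creatine, at 223, 257 and 273 FPKM in liver.

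Genes of glucose metabolism were split as well, with 9 of 35 called higher in liver and 15 higher in kidney, where 8.28% and 35.8% of all tested genes were, and 9 and 13 after centring. Pck1, Fbp1 and Sord, among the most abundant, were high in both organs and were not called on the deposited or the centred scale. After quantile normalization Pck1 was called higher in kidney, at -1.34. Fbp1, fructose bisphosphatase of gluconeogenesis, stood at 597, 634 and 756 FPKM in liver and 617, 651 and 766 FPKM in kidney, and the 95% interval of its difference ran from -0.22 to 0.10. Pck1, the cytosolic PEP carboxykinase, stood at 585, 984 and 1205 FPKM and 1002, 1375 and 1888 FPKM, and G6pc, the glucose-6-phosphatase that releases glucose, at 72.6, 144 and 315 FPKM and 182, 269.9 and 448 FPKM, with wide spread among livers. Among the genes called higher in liver were the regulator Gckr, the glycogen enzymes Gys2 and Pygl, the pyruvate kinase Pklr, the glucose transporter Slc2a2, the urate transporter Slc2a9, the aldehyde dehydrogenase Aldh1b1 and the hexokinase Hk3, with differences from 1.13 to 5.88. Ldhb, the heart type lactate dehydrogenase subunit, stood at 852, 1032 and 1167 FPKM in kidney and at 2.05, 2.77 and 3.60 FPKM in liver, while Ldha, the other main subunit, stood at 219.7, 239 and 244 FPKM and 261, 285 and 338 FPKM and was not called. The glycolytic aldolase Aldoa differed by -3.29 ± 0.094 with 626, 694 and 899 FPKM in kidney.

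In amino acid breakdown 26 of 56 genes were called higher in liver, 11 higher in kidney and 19 were not called. Over all tested genes 8.28% and 35.8% were called higher in liver and kidney. After centring the list had 35 and 7. Hpd of tyrosine breakdown, Cdo1 of cysteine breakdown and Gnmt, which uses methyl groups of methionine, stood at 1487, 1740.1 and 1895 FPKM, 1224, 1385 and 1680.4 FPKM and 1225, 1374 and 1748 FPKM in liver. Their levels in kidney were 138, 203 and 252 FPKM, 108, 112 and 141 FPKM and 15.4, 19.8 and 29.7 FPKM. Aadat, an aminotransferase of lysine and kynurenine breakdown, went the other way, with 1082, 1245 and 1412 FPKM in kidney and 40.1, 44.2 and 50.6 FPKM in liver (-4.76 ± 0.077). Tat, the tyrosine aminotransferase, stood at 479.6, 695 and 946 FPKM in liver and was listed at 0 in every kidney library, while Hpd and Fah, later enzymes of the same route, were carried by both organs. Dao, the oxidase of D-amino acids, showed the opposite, at 169, 182 and 202 FPKM in kidney and listed at 0 in every liver. Others called higher in kidney included Mat2a, Gldc, Csad, Bcat1, Bcat2, Ddc, Acmsd and Ddo, with differences from -1.19 to -2.54. Of these, Gldc, Csad, Bcat2 and Ddo were not called after centring, and the libraries of the organs overlapped for Gldc, Csad and Ddc.

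For fatty acid oxidation and ketones, 5 of 31 genes were called higher in liver, 7 higher in kidney and 19 were not called. Over all tested genes 8.28% and 35.8% were called higher in liver and kidney. After centring the list had 11 and 6. The median was -0.10 against -0.74 over all tested genes. Fabp1, the fatty acid binding protein of liver, stood at 4884, 5327 and 6477 FPKM in liver and 4.38, 7.20 and 12.9 FPKM in kidney. Oxct1, which is needed to burn ketone bodies, stood at 1.17, 1.56 and 2.02 FPKM in liver and 334, 407 and 441 FPKM in kidney. Acadm, the medium chain dehydrogenase, stood at 93.6, 103 and 120.5 FPKM in liver and 477, 525 and 708 FPKM in kidney, and the thiolase Acaa2 differed by 1.24 ± 0.082. Acsm3, an acyl-CoA synthetase, was called higher in liver, at 3.65. The carnitine enzymes Cpt1a and Cpt2 were not called, at -0.11 ± 0.10 and -0.39 ± 0.085.

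Among 45 enzymes of drug and xenobiotic metabolism, 28 were called higher in liver and 9 higher in kidney, where 35.8% of all tested genes were called higher in kidney, and 30 and 8 were called after centring. The cytochrome P450 Cyp2e1 stood at 4304, 4856 and 6201 FPKM in liver and 81.4, 133 and 165 FPKM in kidney, and Cyp3a11 at 795, 1338 and 2417 FPKM in liver and at no more than 0.23 FPKM in kidney. Cyp2d26 stood at 608, 656 and 707 FPKM and 246, 279 and 327 FPKM, and the glutathione transferase Gstm1 at 987, 1474 and 1881 FPKM and 466, 688 and 727 FPKM, so that both were called higher in liver at a high level in kidney. The P450 genes Cyp1a2 and Cyp2c29 were listed at 0 in 5 kidney libraries each. The 9 called higher in kidney were Gsta2, Ugt3a1, Ugt3a2, Ugt2b38, Fmo1, Fmo2, Cyp4b1, Sult1d1 and Nat8, with differences from -1.14 to -5.15. Fmo1 was not called after centring. Gsta2, another glutathione transferase, stood at 671, 894 and 978 FPKM in kidney and 9.83, 24.4 and 80.9 FPKM in liver. The P450, Gsta, Ugt and Mup families hold close copies, so the level of a single member is uncertain where reads were shared.

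Marker genes were listed for podocytes, the proximal tubule, the thick ascending limb, the distal convoluted and connecting tubule and the collecting duct. Of 40 proximal tubule genes 38 were called higher in kidney, against 35.8% of all tested genes, with a median of -6.03, and the counts did not change after centring. Kap, Napsa, Slc34a1 and Miox were the most abundant. Napsa, an aspartic protease of lysosomes, stood at 2479.5, 2904 and 3782 FPKM in kidney and 0.41, 0.78 and 0.95 FPKM in liver, and Slc34a1 at 1904, 2592 and 2985 FPKM and 0, 0 and 0.06 FPKM. Slc34a1 is the sodium phosphate cotransporter. The receptors Lrp2 and Cubn, which take filtered proteins back into the cell, stood at 124, 165 and 181 FPKM and 50.8, 56.6 and 63.5 FPKM in kidney and at no more than 0.02 and 0.03 FPKM in liver. Slc5a2, the glucose cotransporter of the early tubule, stood at 116, 185 and 213 FPKM. The gene that went against the list was Slc22a30, an organic anion transporter, at 60.8, 68.9 and 79.0 FPKM in liver and 5.66, 8.82 and 12.7 FPKM in kidney. Anpep, an aminopeptidase of the brush border, was not called, at 47.9, 50.6 and 60.8 FPKM in liver and 73.8, 88.5 and 104 FPKM in kidney.

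All 14 tested genes of the thick ascending limb and all 14 of the distal convoluted and connecting tubule were called higher in kidney, with medians of -6.20 and -3.71, on both scales. Umod, the uromodulin of urine, stood at 1410.1, 1692 and 1798 FPKM in kidney and was listed at 0 in 5 livers. Slc12a1, the furosemide-sensitive salt transporter, stood at 281, 341 and 487 FPKM and was listed at 0 in every liver. Egf, a growth factor precursor that the tubule releases, stood at 416, 477 and 543 FPKM and the tight junction protein Cldn10 at 137, 147 and 224 FPKM. In the distal tubule the kallikrein Klk1 stood at 2413, 4050.3 and 4993 FPKM, and its lowest value, in kidney diestrus replicate 2, lay apart from the others. Slc12a3, the thiazide-sensitive transporter, stood at 156, 262 and 364 FPKM and the calcium-binding Calb1 at 93.7, 161 and 300.3 FPKM, so that both varied more among kidneys than Umod did. The potassium channel subunit Kcnj16 stood at 188, 225 and 252 FPKM and 0.28, 0.51 and 0.82 FPKM.

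In the collecting duct, 12 of 13 principal cell genes and 16 of 16 intercalated cell genes were called higher in kidney. Aqp2, the water channel that vasopressin controls, stood at 104, 187 and 420.2 FPKM in kidney and was listed at 0 in every liver. The highest Aqp2 was in kidney diestrus replicate 2 and the lowest in kidney estrus replicate 1, the libraries with the high urothelial genes. Scnn1a, a subunit of the epithelial sodium channel, was also present in liver, at 15.9, 18.9 and 26.2 FPKM against 81.8, 96.8 and 169 FPKM in kidney, while Scnn1g was listed at 0 in every liver. Hsd11b2, which shields the mineralocorticoid receptor from glucocorticoids, stood at 94.1, 116 and 179.9 FPKM in kidney, and the water channel Aqp3 at 56.1, 84.0 and 101 FPKM. The receptor itself, Nr3c2, was not called, at 1.14, 1.40 and 2.47 FPKM in liver and 2.83, 3.43 and 4.16 FPKM in kidney. Among intercalated cell genes, the carbonic anhydrases Car2, Car15 and Car12 and the proton pump subunit Atp6v0a4 were the most abundant, with 266, 303 and 324 FPKM for Car2. The ammonia channel Rhcg stood at 58.9, 83.2 and 112 FPKM and was listed at 0 in every liver, while its relative Rhbg was present in liver at 6.35, 9.61 and 15.9 FPKM. Rhbg and Atp6v0d2 were called as deposited and not after centring.

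Podocyte genes were called higher in kidney in 11 of 13 cases and higher in liver in 1, and 10 and 1 after centring, where Kirrel, a protein of the slit between podocytes, lost its call. Podxl, a surface sialoprotein, stood at 44.5, 49.0 and 56.3 FPKM in kidney and 0.56, 1.44 and 2.13 FPKM in liver, and Cdkn1c, a cell cycle inhibitor, at 19.5, 23.1 and 36.1 FPKM and 1.71, 2.00 and 2.68 FPKM. Podocytes are few, and Wt1, a transcription factor that they need, stood at 4.97, 6.41 and 8.40 FPKM in kidney.

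**Figure D4:**
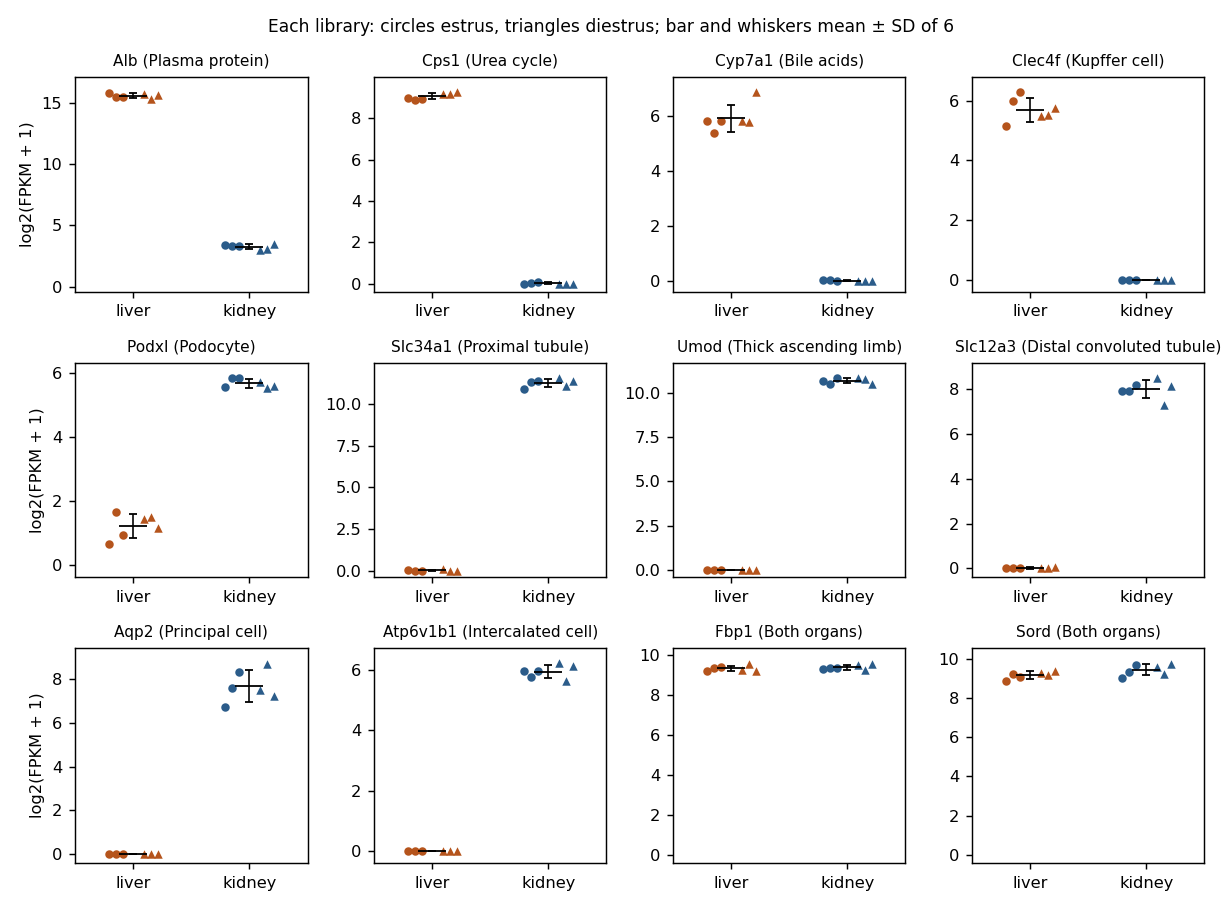
Log2(FPKM + 1) in each liver and kidney library for 12 genes that mark cell types or pathways; circles are estrus and triangles diestrus libraries, and the bar with whiskers is the mean ± SD of the 6 libraries of an organ. The organs do not overlap for the first 10 genes, while they overlap for Fbp1 and Sord.

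Hormone genes of the renin-angiotensin and vitamin D systems were split between the organs by step. Of 30 tested genes, 12 were called higher in liver, where 8.28% of all tested genes were. Another 11 were called higher in kidney, a share close to the 35.8% of all tested genes. After centring the counts were 15 and 11. Agt, the angiotensinogen that renin cleaves, stood at 512, 575 and 610.1 FPKM in liver and 40.3, 51.8 and 59.0 FPKM in kidney. Ren1, renin, stood at 44.3, 85.6 and 125 FPKM in kidney and was listed at 0 in 4 livers. Ace, which converts angiotensin, differed by -5.80 ± 0.089. Cyp2r1, which forms the 25-hydroxylated vitamin D, was called higher in liver at 2.07, and Cyp27b1 and Cyp24a1, which activate and inactivate it, were higher in kidney at -3.30 and -4.15. Kidney also led in the vitamin D receptor Vdr, the parathyroid hormone receptor Pth1r and the FGF23 coreceptor Kl, at 49.5, 62.8 and 74.2 FPKM, 189, 236 and 254 FPKM and 118, 157 and 214 FPKM, and in the neutral peptidase Mme and the prorenin receptor Atp6ap2. The highest liver genes of the list were Gc, Hamp and Hamp2, of which Hamp, the iron hormone hepcidin, ranged over 692, 2375 and 4055 FPKM in liver. The estrogen receptor Esr1 was higher in liver, at 4.08, 5.19 and 7.15 FPKM against 0.87, 1.87 and 2.55 FPKM (adjusted p = 6.71e-06). Epo was under the filter, listed at 0 in every liver and at no more than 0.64 FPKM in kidney.

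Transcription factors were called in both directions, 17 of 49 higher in liver and 24 higher in kidney, where 8.28% and 35.8% of all tested genes were. After centring the counts were 20 and 22. The most abundant, Hnf4a, which directs hepatocytes and proximal tubule cells, was not called, at 148, 178 and 221 FPKM in liver and 178, 202 and 215 FPKM in kidney. Its difference was -0.17 ± 0.084 as deposited and turned positive after centring. Cebpa, a C/EBP factor of hepatocytes and fat cells, stood at 138, 228 and 255 FPKM and 21.1, 24.3 and 28.3 FPKM. The retinoid partner Rxra and the glucocorticoid target Klf15 differed by 1.90 ± 0.085 and 0.44 ± 0.16, of which Klf15 was not called as deposited and was called after centring. The other genes called higher in liver were Creb3l3, Nr1i3, Nr1i2, Nr0b2, Nr5a2, Cebpb, Prox1, Foxa1, Foxa2, Foxa3, Onecut1, Onecut2, Gata4, Tbx3 and Pparg, with differences from 1.35 to 6.42. Pax8, Pou3f3, Emx1 and Tfcp2l1 were among the factors called higher in kidney. Pax8, which specifies the nephron, stood at 47.5, 54.5 and 67.1 FPKM in kidney and at no more than 0.07 FPKM in liver, and Pou3f3, Emx1, Emx2 and Pax2 were listed at 0 in all 6 livers.

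For 14 pairs of isoenzymes or partners, the difference of log2(FPKM + 1) between the first and the second gene was taken within each library, which takes out most of the scale of the library. All 14 pairs separated the 6 livers from the 6 kidneys without overlap. Each had an exact two-sided permutation p of 0.00216, the smallest that 6 against 6 libraries allow, which is also the value after adjustment over the 14 pairs. Of these, 9 are described here. The pairs were chosen with the organs' levels known, and the p-values describe separation only. Single tested genes separated often too, with all 6 liver values above the 6 kidney values for 11.3% and the reverse for 67.3%. The share over other pairs of genes was not taken. The first gene was ahead in liver and the second in kidney on average for 7 of the 9. Arg1 over Arg2 stood at 9.55 ± 0.15 (SD, n = 6) in liver and -4.82 ± 0.31 in kidney. Mat1a over Mat2a, which make the methyl donor S-adenosylmethionine, stood at 4.94 ± 0.26 (SD, n = 6) in liver and -7.49 ± 0.07 in kidney. The pyruvate kinases Pklr over Pkm shifted by 6.26, the glycogen synthases Gys2 over Gys1 by 6.60, and the bile acid transporters Slc10a1 over Slc10a2 by 11.42. Gamt over Gatm, the consecutive enzymes of creatine synthesis, shifted by 9.87. For Cyp27a1 over Cyp27b1 and Aox3 over Aox1 the first gene was ahead on average in both organs, and less so in kidney, with shifts of 6.40 and 2.29. Aox3 and Aox1 reached no more than 0.67 and 0.37 FPKM in kidney, so that their ratio there rests on values near 0. Agt over Ren1 stood at 9.12 ± 0.15 (SD, n = 6) in liver and -0.68 ± 0.48 in kidney, where 1 library had Agt ahead.

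**Figure D5:**
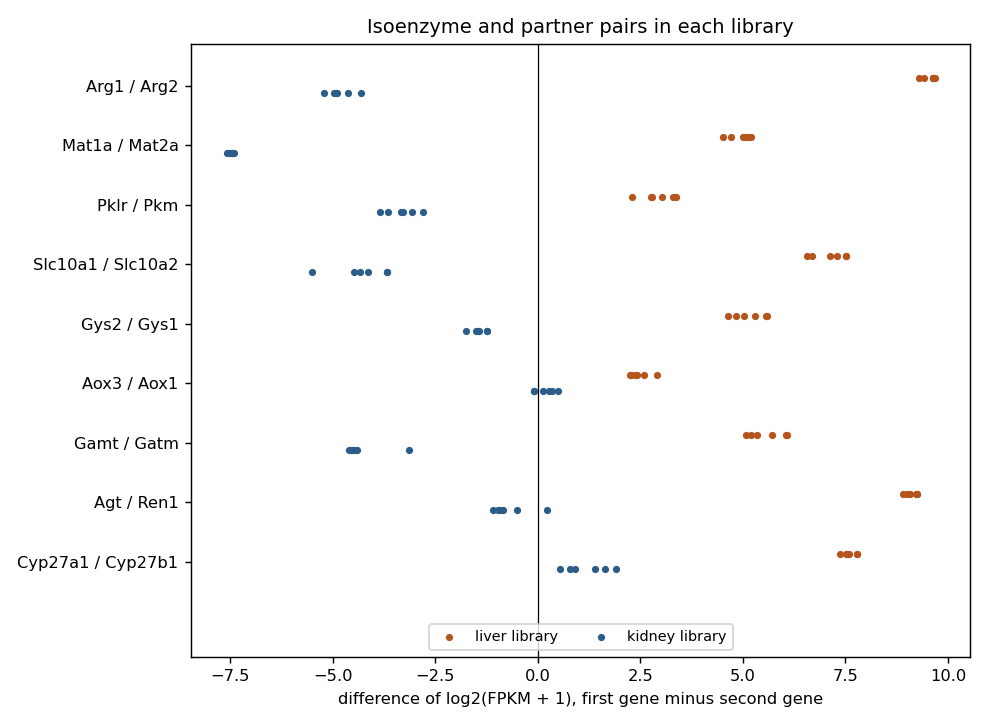
Difference of log2(FPKM + 1) between the first and the second gene of each of 9 pairs, one point per library, with livers above kidneys in each row. The 2 organs do not overlap in any of the 9 pairs.

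Beside the differences, a set of genes stood at a close level in both organs and highest there of all 15 tissues. In 132 genes both organs had a mean of at least 10 FPKM, the 95% interval of their difference lay between -1 and 1, and both ranked first and second of the 15 tissues. A minimum of 5 FPKM gave 140 genes, and an interval between -0.5 and 0.5 gave 57. Among the most abundant were Ftl1, Gpx1, Fbp1, Sord, Ttc36 and Fah. Ftl1, the light chain of ferritin, stood at 3225, 3527 and 4037 FPKM in liver and 2753, 3235 and 3669 FPKM in kidney, with 2311 FPKM as the median of white fat, the next tissue. The antioxidant enzyme Gpx1 stood at 1334, 1641 and 1815 FPKM and 1031, 1255 and 1304 FPKM. Other tissues were far lower for Ttc36 and Fbp1, with medians of no more than 3.90 and 21.9 FPKM. Fah, the last enzyme of tyrosine breakdown, differed by 0.68 ± 0.069 and was called after centring, as was Gpx1. Sord, which turns sorbitol into fructose, differed by -0.26 ± 0.11, and Ttc36 by 0.28 ± 0.12. The sign of these small differences depends on the scaling. Ftl1, Gpx1 and Ttc36 were positive as deposited and after centring but negative after quantile normalization, at -1.02, -0.57 and -0.04, while Fbp1 and Sord turned from negative to positive after centring, at 0.53 and 0.32. Across all tested genes, 5403 had an interval between -1 and 1.

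Genes of other cell types differed too. Of 9 genes of liver macrophages 8 were called higher in liver, led by Cd5l at 45.0, 68.7 and 105 FPKM and Clec4f at 34.5, 49.1 and 77.3 FPKM, the latter a lectin of Kupffer cells that was listed at 0 in every kidney library. Vsig4 differed by 5.03 ± 0.15, and Csf1r, which all macrophages carry, was not called (-0.12 ± 0.19). Of 8 sinusoidal endothelial genes 6 were called higher in liver, among them Clec4g, Dnase1l3 and Gpr182, at 5.52, 3.88 and 1.74, and 7 after centring, when the scavenger receptor Stab1 was added. Fcgr2b was not called (-0.19 ± 0.20). Of 7 stellate cell genes 4 were called higher in liver, with Colec11, Reln and Lrat at 3.94, 1.75 and 1.14, and 6 after centring, when Ecm1 and the growth factor Hgf were added. Des was not called. Kidney was higher for 8 of 9 genes of its endothelium and mesangium on the deposited scale and for 5 after centring, with Plvap, Ren1 and Emcn at -1.46, -6.33 and -4.26, of which Plvap was not called after centring. Ehd3, of glomerular endothelium, was not called as deposited and was called higher in liver after centring, at 16.8, 24.1 and 30.7 FPKM in liver and 14.7, 17.2 and 18.2 FPKM in kidney. The markers of bile ducts were higher in kidney in 3 of 4 cases, Spp1, Krt7 and Epcam, which are also genes of kidney epithelium. Spp1, osteopontin, stood at 1049, 1231 and 1394 FPKM in kidney and 23.4, 33.1 and 34.6 FPKM in liver, and Krt19 was not called.

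Markers of blood and of tissues that could adhere to the organs were read as well. For adipocytes 4 of 6 were called higher in kidney, and 3 after centring, when the hormone gene Adipoq lost its call. Their summed level was 49.1 to 64.6 FPKM in liver and 161 to 326 FPKM in kidney. Fabp4, also an endothelial gene, was highest in kidney diestrus replicate 2, at 174 FPKM, as was Cfd, while Retn was highest in diestrus replicate 3, Pnpla2 was not called, and Lep stood at no more than 0.20 FPKM in any library. Of 8 genes listed for the adrenal cortex 3 passed the filter, and none was called higher in kidney. Cyp17a1 stood at 50.5, 79.0 and 121 FPKM in liver and 0.12, 0.16 and 0.40 FPKM in kidney. Cyp21a1 differed by 1.55 and Star by -0.54, and Cyp11b1 and Cyp11b2 were listed at 0 in all 12 libraries. Of the 3 genes tested, 2 were called higher in liver. The summed level of the 8 genes was 53.7 to 124 FPKM in liver and 1.69 to 2.27 FPKM in kidney. The part of adrenal tissue was not tested. Of the pancreatic genes, Cela1 passed the filter, and it was called higher in kidney at -2.68, while Amy2b and Cpa1 were listed at 0 in all 12 libraries. None of the 5 lymphocyte genes tested was called as deposited and Cd79a, of the B cell receptor, was called higher in liver after centring, with Ptprc at -0.07 ± 0.12 and a summed level of 9.20 to 11.5 FPKM in liver and 9.10 to 13.6 FPKM in kidney. The 6 smooth muscle genes were called higher in kidney in 4 cases, with Smtn, Tagln and Acta2 at -3.70, -1.74 and -2.86, while Mylk and Des were not called, and their sum was 26.2 to 29.4 FPKM in liver and 89.9 to 134 FPKM in kidney. The hemoglobins overlapped between the organs. Hba-a1 stood at 46.2, 177 and 445 FPKM in liver and 48.0, 335 and 765 FPKM in kidney, Hbb-bs, Hba-a2 and Hbb-bt varied as widely, and none of the 4 hemoglobins was called. In this list Slc4a1, also an intercalated cell gene, was higher in kidney and Alas2 of heme synthesis higher in liver, at -4.23 and 1.54. The part of blood, fat and muscle in the organ differences was not tested.

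The organ difference was also compared between phases. No gene was called for a phase effect that differed between the organs, and 401 genes, 3.25% of those tested, had an unadjusted p under 0.05. No gene was called between estrus and diestrus over both organs, and 712, or 5.77%, had an unadjusted p under 0.05. The study compared the phases within each tissue with another method, DEGSeq, and did report genes for kidney. That comparison was not repeated here. In the estrus libraries alone 1030 genes were called higher in liver and 4430 higher in kidney, and in the diestrus libraries alone 1002 and 4413. With 3 libraries per organ and phase, a p that misses the threshold does not show that the phases were alike.

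Set against the other 13 tissues, liver was the highest of 15 for 549 of the 1022 genes called higher in liver, 53.7%. Kidney was the highest for 749 of the 4423 genes called higher in kidney, 16.9%. Over all tested genes liver was the highest in 5.65% and kidney in 7.65%, and over genes not called in 2.16% and 2.83%. These shares rest on the deposited scale, and a gene higher in one organ cannot be highest in the other. The mean Pearson r between liver and kidney libraries over 15226 genes was 0.686 (0.676 to 0.694), which ranked 40 among the 105 pairs of tissues, and libraries within liver correlated at 0.986 to 0.993 and within kidney at 0.982 to 0.994. Kidney was the tissue closest to liver, while brown adipose tissue, at 0.719, was closest to kidney. These values are across genes, which are not independent replicates, and describe similarity only.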

How the data were processed

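Gene expression in 12 of 90 libraries, 6 of liver and 6 of kidney, was read from 1 table of the whole series. Total RNA had been sequenced on the BGISEQ-500 platform. According to the study's methods and the submitters' processing notes, the authors cleaned reads with SOAPnuke, aligned them to build GRCm38.p5 with Bowtie2 version 2.2.5 and estimated expression with RSEM version 1.2.8. The deposited values were taken as FPKM. Neither the table's header nor the methods name the unit, which was inferred from the values, since the libraries have different sums, and counts and strand settings are not given in the sources used here. FPKM fixes the scale of each library by its total, so that abundant genes lower the values of the others. Where gene copies share reads, the level of a single copy is uncertain. Depth was estimated from the steps between low values, and no counting interval could be given.

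Genes averaging 1 FPKM or more were tested on log2(FPKM + 1) with limma version 3.58.1 in R version 4.3.3 (linear model with organ and phase, variance trend, Benjamini-Hochberg adjustment over 12346 genes, 8068 left out as low). In simulated data of the same size, 99% of 200 genes changed by 1.5 and 99.5% of 200 changed by 3 on the log2 scale were recovered. Both changes exceed the call limit of 1. The simulated noise was normal and independent between genes, with no other organ difference. Effects of scaling and of outlying libraries were therefore not covered. Other tables and figures were made in Python version 3.11.15 with numpy version 2.4.6, pandas version 2.3.3, scipy version 1.17.1 and matplotlib version 3.10.9. Same-numbered liver and kidney libraries deviated together from their group means (r = 0.222, 0.154 and 0.150 in estrus and 0.223, 0.111 and 0.276 in diestrus, against -0.204 to 0.049 for other numbers), so that the numbers may pair the samples. The study dissected all tissues from 3 mice per phase, and whether equal numbers mark the same mouse is not stated. P-values measure the spread between these mice.

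The libraries, the 27 gene lists, the 14 pairs and the motifs were chosen with earlier results of these data known. Named genes were the 10 largest differences in each direction without overlap of the organs, the 4 most abundant members of each list, members called against the direction of most called members of their list where reported here, all genes of the pairs, the 8 most abundant shared genes, and other list members where a sentence on their role needed them. The genes that set single libraries apart were chosen after their values were seen. Alternatives covered the pseudocount, the filter, the scaling, the fold limit, the phases, the block, the variance trend, a fit of all 90 libraries and leaving out each library, and 3 more were added after seeing the data. Promoters are from RefSeq, build GRCm38.p6, matched by gene identifier. The 149 table entries with no symbol were not named, and the results of some genes, pairs and motifs are not reported here.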

Additional observations from a re-analysis of the deposited data

Results flagged for a closer look

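Among genes named above, 29 of 355 sets of 6 libraries, 8.17%, held 1 value far from the other 5 on the log2(FPKM + 1) scale. Chance alone marks about 1 in 20 sets. The 355 sets did not include Pgc in kidney and Dbp in liver, genes picked above for setting single libraries apart. The largest group of the 29 sets belongs to kidney estrus replicate 3, one of the 2 kidney libraries that lack the cardiac transcripts. It was the lowest kidney library for Abcc4 (15.25 FPKM), Ddo (19.68 FPKM), Fgg (1.81 FPKM), Gatm (345.44 FPKM) and Oxct1 (334.36 FPKM). It was the highest for Acot8 (30.00 FPKM), Aldoa (898.60 FPKM), Cdo1 (140.64 FPKM), Cpt2 (83.42 FPKM), Krt7 (126.28 FPKM) and Ttc36 (792.09 FPKM).

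In the 2 kidney libraries with high urothelial genes, estrus replicate 1 was lowest for the water channel Aqp3 (56.10 FPKM) and for Cyp27b1 (3.61 FPKM). Diestrus replicate 2 was lowest for Klk1 (2413.42 FPKM) and Pth1r (188.98 FPKM) and highest for Fabp4 (173.58 FPKM) and Pax2 (54.27 FPKM).

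In liver, estrus replicate 3 was highest for Hpx (4653.76 FPKM), Cfb (531.51 FPKM) and Anpep (60.84 FPKM) and lowest for Apoa2 (10826.46 FPKM), Hamp2 (303.28 FPKM) and Sult1d1 (40.45 FPKM). Estrus replicate 1 was lowest for Gpx1 (1333.63 FPKM) and Rxra (76.87 FPKM), and estrus replicate 2 for Cyp2r1 (5.45 FPKM). Diestrus replicate 1 was highest for Cyp2e1 (6201.14 FPKM), diestrus replicate 2 for Mup3 (4947.96 FPKM) and diestrus replicate 3 for Cyp7a1 (115.60 FPKM). The cause of these values was not tested.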

How the results depend on the processing

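The counts of genes called between the organs moved most with the fold limit and the scaling. Genes called higher in liver numbered 1640 after quantile normalization, 606 at a fold limit of 4 and 1741 with no fold limit. Genes called higher in kidney numbered 2232 with a pseudocount of 5, 2945 with a mean of at least 5 FPKM, 1979 after quantile normalization, 2183 after centring, 1455 at a fold limit of 4 and 9372 with no fold limit. Leaving out each library gave 997 to 1032 and 4262 to 4520. With the replicate number as a block the counts were 1022 and 4423, the block changed no other call of a gene, list or phase effect, and each of the 14 pairs had a sign-flip p of 0.0312, the smallest that 6 pairs allow. Leaving out kidney estrus replicate 2 gave 1 gene called for organ by phase. Among lists, amino acid breakdown had 17 liver genes and kidney endothelium and mesangium 3 kidney genes at a fold limit of 4, the latter 5 after quantile normalization and after centring, fatty acid oxidation 12 kidney genes with no fold limit, and podocytes 6, liver macrophages 4 and sinusoidal endothelium 3 at a mean of at least 5 FPKM, where fewer members are tested. The interval limit of 0.5 left 57 shared genes. The similarity of liver and kidney was 0.769 over all listed genes, where aorta was nearest to kidney at 0.806. By Spearman rho the similarity was 0.731, and this measure put kidney and liver nearest to each other. Over all listed genes Spearman rho was 0.835, and white adipose tissue was nearest to kidney at 0.837.

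Of 6571 values of the 228 genes named under alternatives, 6370 kept direction and side of the threshold, 91 lost and 67 gained the call, and 43 changed sign, all in genes not called as deposited. After centring these were Cpt1a 0.48, Cpt2 0.19, Csf1r 0.47, Fbp1 0.53, Fcgr2b 0.40, Hba-a1 0.21, Hba-a2 0.20, Hbb-bs 0.13, Hbb-bt 0.27, Hnf4a 0.42, Mylk 0.21, Pck1 0.05, Ptprc 0.52, Sord 0.32 and Star 0.05. After quantile normalization they were Ass1 -0.36, Cpt1a 0.10, Csf1r 0.51, Fcgr2b 0.37, Ftl1 -1.02, Gpx1 -0.57, Hbb-bt 0.36, Krt19 0.04, Mylk 0.31, Nr3c2 0.15, Ptprc 0.84, Star 0.39 and Ttc36 -0.04. Rescaled without the 100 most abundant genes they were Cpt1a 0.20, Csf1r 0.18, Fbp1 0.25, Fcgr2b 0.11, Hnf4a 0.14, Ptprc 0.15 and Sord 0.05. Without both kidney replicates 3, Hba-a2 stood at 0.07. Over the libraries left out in turn, values that changed sign ran from -0.89 to 0.09 for Hba-a1, -0.93 to 0.03 for Hba-a2, -0.80 to 0.17 for Hbb-bt and -0.29 to 0.05 for Csf1r. It ended the calls of Acot8 (-0.99) and Gldc (-0.95) without kidney estrus replicate 3 and of Atp6v0d2 (-0.97) without liver estrus replicate 3, and it gave calls for Des, Ecm1, G6pc and Krt19. The depth of the libraries limits what can be said of genes near 0.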

Other observations

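Livers differed among themselves in a group of genes that were at or near 0 in kidney. Mup15 ranged from 0 in liver estrus replicate 1 to 1232 FPKM in liver estrus replicate 2, and Mup17 from 3.16 to 954 FPKM in the same libraries. Cyp3a41a, a P450 typical of female mice, stood at 3.51 FPKM in liver estrus replicate 1 and at 1236 FPKM in estrus replicate 2, and Cyp3a16 at 0.14 and 132 FPKM. The sulfotransferase Sult2a1 ran from 2.07 FPKM in estrus replicate 3 to 413 FPKM in estrus replicate 2. The highest Mup and Cyp3a values did not fall in the same libraries throughout, since liver diestrus replicate 2 had 1198 FPKM of Mup15 and 69.7 FPKM of Cyp3a41a. These genes were chosen for their spread after the values were seen, and close copies share reads.

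Genes of the circadian clock set 1 liver library apart. Dbp, an output gene of the clock, stood at 0.98 FPKM in liver estrus replicate 1 and at 44.0 to 127 FPKM in the other livers. Per2 was lowest there too, at 1.15 FPKM against 7.01 to 15.8 FPKM, and Arntl, which peaks when Dbp is low, was highest at 7.55 FPKM against 0.34 to 1.85 FPKM. In kidney the same was seen in estrus replicate 1, with Dbp at 15.6 FPKM, Per2 at 2.46 FPKM and Arntl at 5.77 FPKM, the lowest, the lowest and the highest of the 6 kidneys. The hour of dissection is not given in the sources used here, and its part was not tested.

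Lcn2 and Saa1, genes of the acute phase picked for their spread, were highest in liver estrus replicate 3, with Lcn2 at 291 FPKM against 12.4 to 33.1 FPKM and Saa1 at 176 FPKM against 25.2 to 57.1 FPKM in the other livers. Hemoglobin also varied widely among the libraries of both organs. Hba-a1 ran from 46.2 to 445 FPKM in liver and from 48.0 to 765 FPKM in kidney, and diestrus replicate 3 was the highest in liver and the second highest in kidney.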
